A study of Mus musculus with 20 samples.

Results

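The genes described here are 37 listed mouse genes of the synaptic vesicle and the glutamate synapse, out of 21887 protein-coding genes on chromosomes 1 to 19, X and Y. They are a list of names, drawn up with earlier results of these data known and with no measured value in its rule, and all 37 were found in the annotation. By role they comprise 4 synaptotagmins, 6 SNARE proteins and complexins, 10 other vesicle proteins, 6 active zone proteins, 4 vesicular transporters, 3 neurexins and neuroligins, and 4 AMPA receptor subunits. The question taken from the series is which of them already carried marks of active or repressed chromatin, or binding of ISL1 or POU4F1, in the young ganglion.

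The samples were CUT&Tag libraries, in which an antibody tethers a transposase to a chromatin protein so that the adjoining DNA can be sequenced. All were made from tissue labelled mouse CVGs, read here as cochleovestibular ganglia, the source of auditory and vestibular neurons, taken from C57BL/6J embryos at E11.5, with no mutant or treated group. Of the 20 libraries, the groups H3K27ac, H3K27me3 and ISL1_70 have 3 each, POU4F1 and H3K4me3 have 2 each and ISL1_26 has 1, and the 2 IgG control groups, IgGR and IgGM, have 3 each. Peak lists of the 14 libraries other than IgG were used. Both ISL1 groups name ISL1 as the antibody, and what 26 and 70 mean is not stated. The labels do not tie replicates to different animals or days, so their agreement may be technical.

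Synaptic vesicles are filled with transmitter by vesicular transporters, docked at the active zone by scaffold proteins, and fused with the membrane by SNARE proteins when a synaptotagmin senses calcium. Neurexins and neuroligins join the sending and receiving sides, and AMPA receptors carry the fast response to glutamate, the transmitter of auditory and vestibular ganglion neurons. H3K27ac marks active promoters and enhancers, H3K4me3 marks promoters, and H3K27me3 marks chromatin held by Polycomb proteins. ISL1 is a LIM homeodomain factor and POU4F1 a POU homeodomain factor, both present in developing sensory neurons.

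The lists give positions of enrichment and no read totals, so depth is unknown and peak heights were not compared between libraries. List length ranged from 8855 peaks (H3K27ac replicate 1) to 168144 peaks (H3K27ac replicate 3). The library labelled H3K4me3 replicate 1 resembles H3K27me3 in these data, so H3K4me3 is represented here by replicate 2 alone. The gene window is the gene with 10 kb on each side, and a gene end is the 1 kb on either side of an annotated end of the gene. A region is called replicated where overlapping peaks came from at least 2 libraries of a target. The tissue label was checked with marker genes: replicated H3K27ac lay at an end of 13 of 14 ganglion neuron markers, of 2 of 5 otic epithelium markers, of 1 of 5 mesenchyme markers, of 1 of 5 blood and endothelium markers, of 2 of 4 muscle markers and of 0 of 4 gut and liver markers. Of all genes, 47.5% had replicated H3K27ac at an end and 20.5% had replicated H3K27me3 there. Replicated H3K27me3 lay at an end of 11 of the 14 ganglion neuron markers, of 4 of 5 otic epithelium markers and of 5 of 5 mesenchyme markers. For blood and endothelium it was 1 of 5, for muscle 1 of 4 and for gut and liver 1 of 4. The part that such other cells have in the values below was not tested.

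The 2 start sites of the transporter gene Slc17a6 and the start site of Slc32a1 are shown first because these genes carry different marks, and the starts of Syn1, Unc13a and Gria4 because of the motifs or the factor found beside them. Each sequence is the RefSeq promoter of assembly GRCm38.p6, which has the primary chromosomes of mm10, read 5′ to 3′ on the strand of the gene, from 250 bases before the start to 50 after it. Capitals mark matches, on either strand, to TTCAGCACC or GGACAGC (the 2 parts of the RE1 element of the repressor REST), ATTAAT (POU4 family core), TAATTA (homeodomain core) and CATATG (an E-box). A match is a description of the letters and not a shown binding site.
Slc17a6 upstream start, chr7:51621580-51621879, plus strand: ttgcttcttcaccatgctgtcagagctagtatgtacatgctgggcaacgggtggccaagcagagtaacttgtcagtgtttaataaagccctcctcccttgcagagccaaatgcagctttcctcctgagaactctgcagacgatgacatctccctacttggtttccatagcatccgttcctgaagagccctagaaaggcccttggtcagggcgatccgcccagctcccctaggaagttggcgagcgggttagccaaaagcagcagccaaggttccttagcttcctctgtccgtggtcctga
Slc17a6 internal start, chr7:51624387-51624686, plus strand: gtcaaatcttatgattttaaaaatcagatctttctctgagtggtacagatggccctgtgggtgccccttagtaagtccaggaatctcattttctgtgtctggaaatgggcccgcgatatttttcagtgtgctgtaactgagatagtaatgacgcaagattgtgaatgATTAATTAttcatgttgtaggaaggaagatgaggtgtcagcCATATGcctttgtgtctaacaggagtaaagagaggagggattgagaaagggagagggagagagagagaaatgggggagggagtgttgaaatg
Slc32a1, chr2:158610508-158610807, plus strand: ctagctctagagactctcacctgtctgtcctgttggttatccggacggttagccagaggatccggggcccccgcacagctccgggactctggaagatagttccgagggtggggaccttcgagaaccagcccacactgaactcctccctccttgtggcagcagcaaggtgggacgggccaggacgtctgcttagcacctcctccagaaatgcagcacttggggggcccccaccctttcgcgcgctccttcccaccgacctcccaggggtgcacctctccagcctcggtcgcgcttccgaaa
Syn1, chrX:20920869-20921168, minus strand: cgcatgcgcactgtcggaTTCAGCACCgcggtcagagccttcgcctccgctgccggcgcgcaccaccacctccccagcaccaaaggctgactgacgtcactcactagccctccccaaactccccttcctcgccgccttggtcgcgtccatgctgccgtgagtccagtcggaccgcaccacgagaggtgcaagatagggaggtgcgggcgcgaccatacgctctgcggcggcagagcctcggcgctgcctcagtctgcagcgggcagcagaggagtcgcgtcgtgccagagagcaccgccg
Unc13a, chr8:71671708-71672007, minus strand: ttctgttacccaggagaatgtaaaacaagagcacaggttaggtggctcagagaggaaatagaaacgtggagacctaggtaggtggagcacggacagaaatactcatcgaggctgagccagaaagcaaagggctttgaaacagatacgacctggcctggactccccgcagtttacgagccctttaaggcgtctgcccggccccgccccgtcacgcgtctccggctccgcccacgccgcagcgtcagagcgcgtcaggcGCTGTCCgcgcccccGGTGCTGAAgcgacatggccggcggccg
Gria4, chr9:4796185-4796484, minus strand: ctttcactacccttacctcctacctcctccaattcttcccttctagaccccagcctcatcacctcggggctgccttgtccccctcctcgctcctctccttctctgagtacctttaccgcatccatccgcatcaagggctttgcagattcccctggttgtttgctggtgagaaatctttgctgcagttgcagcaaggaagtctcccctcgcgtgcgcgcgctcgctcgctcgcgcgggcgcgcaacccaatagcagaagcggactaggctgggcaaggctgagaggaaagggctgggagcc

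Most of the synaptic genes carried H3K27ac, and nearly as large a share of them carried H3K27me3 as carried ISL1. A replicated H3K27ac region lay in the window of 33 of the 37 genes (89.2%), against 65% of all genes. An H3K4me3 replicate 2 peak lay in the window of 30 (81.1%, all genes 60.4%), a replicated ISL1 region in 23 (62.2%, all genes 38%), a replicated H3K27me3 region in 22 (59.5%, all genes 31.1%) and a replicated POU4F1 region in 5 (13.5%, all genes 1.92%). These genes are long, with a median of 94.4 kb against 17.2 kb for all genes, and a longer window collects more peaks. The share of all genes was therefore also weighted to the lengths of the 37, which gave 78.6% for H3K27ac, 76.8% for H3K4me3, 59% for ISL1, 43.8% for H3K27me3 and 4.45% for POU4F1. Read against these weighted shares, ISL1 stood near the background, H3K4me3 close to it, and H3K27ac, H3K27me3 and POU4F1 above it. The H3K27ac excess was not seen when each list was shortened to its 10000 strongest peaks: 14 genes (37.8%) had it in the window against a weighted 39.5% and 9 (24.3%) at an end against 24.9%. For POU4F1 no gene was left there (weighted 0.56% in the window). The 5 genes with a POU4F1 region are 173 to 520 kb long, and the 20 length bins do not match lengths inside a bin. In POU4F1 replicate 2 alone, 56.8% of the 37 genes had a peak in the window, below a weighted 67.1%. No test was made of these differences, and the 37 genes are not replicates of a condition.

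At gene ends, where a window does not grow with the gene, the order differed in that H3K27me3 was more frequent than ISL1. H3K4me3, close to its weighted share in the window, stood above it here. Replicated H3K27ac lay at an end of 25 genes (67.6%, all genes 47.5%, weighted 53.4%) and H3K4me3 replicate 2 at an end of 22 (59.5%, all genes 39.6%, weighted 44.6%). H3K27me3 lay at an end of 17 genes (45.9%, all genes 20.5%, weighted 30.1%). ISL1 lay at an end of 7 (18.9%, all genes 15.3%, weighted 19%), and POU4F1 at an end of 1, Gria4 (2.7%, all genes 0.503%, weighted 0.63%). The number of H3K27ac genes rests on 2 libraries: it was 14 (37.8%) at gene ends without H3K27ac replicate 2 or without replicate 3, where the weighted shares of all genes were 23.5% and 24.9%. The number of H3K27me3 genes was 10 (27%) at gene ends without H3K27me3 replicate 2 or without replicate 3, where the weighted shares were 15.7% and 15.3%.

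**Figure D1:**
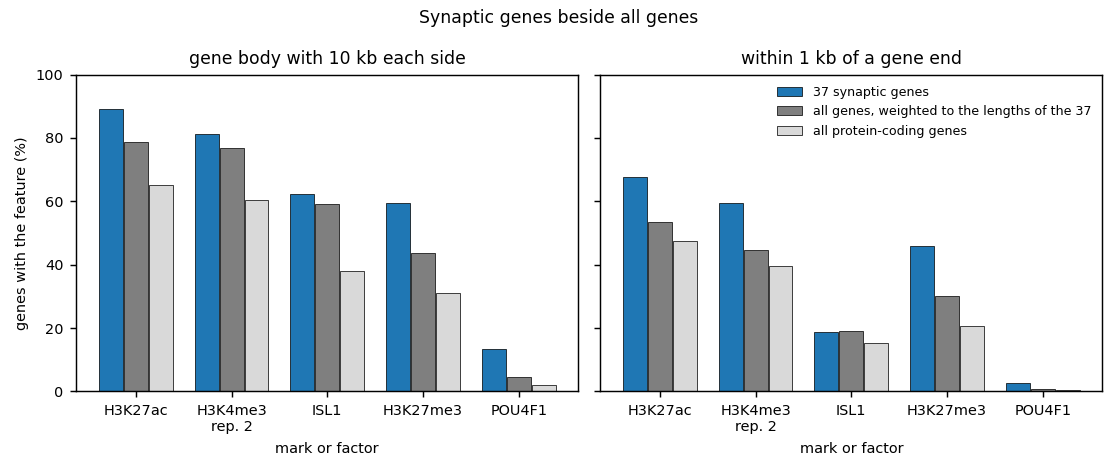
Share of genes (%) with a replicated region of H3K27ac, ISL1, H3K27me3 or POU4F1, or with an H3K4me3 replicate 2 peak, in the gene window (left) and at a gene end (right). Bars show the 37 synaptic genes, all genes weighted to their lengths, and all 21887 protein-coding genes; for ISL1 in the window, 62.2% of the synaptic genes stands beside a weighted 59%, and for H3K27me3 at gene ends 45.9% stands beside 30.1%.

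Library by library, the synaptic genes with a peak in the window numbered 37, 36, 30 and 28 in ISL1_26 replicate 1 and ISL1_70 replicates 1 to 3, where 76.9%, 75%, 41.7% and 55.4% of all genes had one. Weighted to gene length, the shares of all genes were 90.5%, 89.2%, 64.7% and 76.2%, beside 100%, 97.3%, 81.1% and 75.7% of the 37. The POU4F1 libraries had peaks at 31 and 21 of them (all genes 47.4% and 44%, weighted 71.6% and 67.1%). The 83.8% of POU4F1 replicate 1 thus lay above its weighted share and the 56.8% of replicate 2 below it. In H3K27me3 replicates 1 to 3 the numbers were 29, 24 and 32 (all genes 49.9%, 30.5% and 47.6%). These were 78.4%, 64.9% and 86.5% of the synaptic genes, against weighted shares of 66.5%, 43.3% and 60.7%. The spread was widest for H3K27ac, with 19, 36 and 37 genes in replicates 1 to 3 (all genes 37.8%, 73.3% and 82.2%). For H3K27ac this made 51.4%, 97.3% and 100% of the synaptic genes, against weighted shares of 48.4%, 86.9% and 93.7%. The library labelled H3K4me3 replicate 1 had peaks at 27 (73%, all genes 33.1%, weighted 45.8%).

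**Figure D2:**
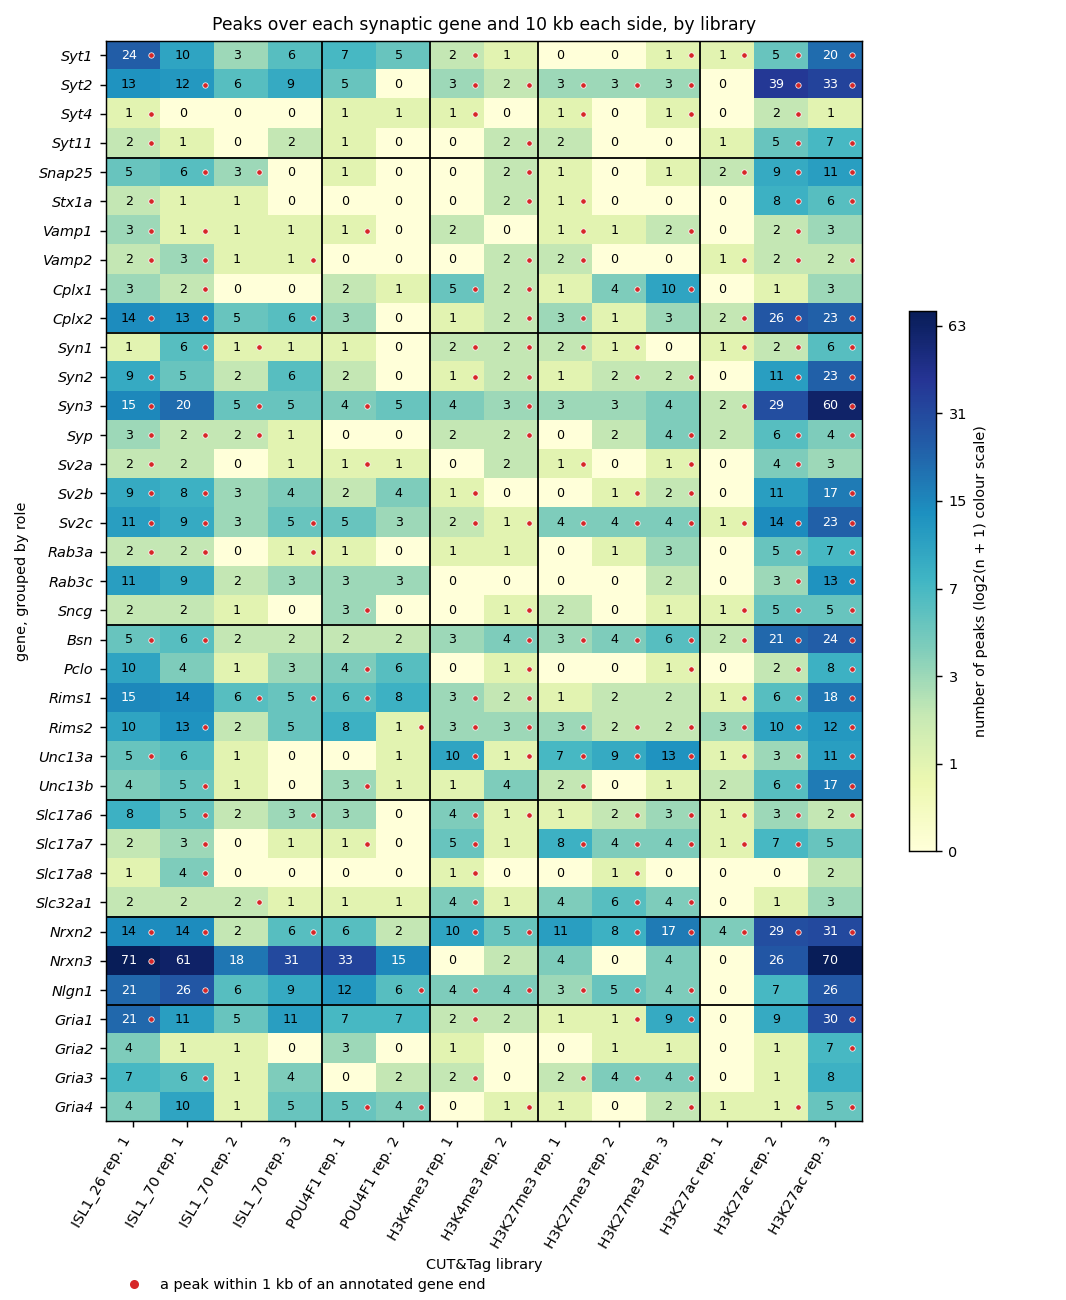
Number of peaks in the window of each of the 37 genes (rows, grouped by role) in each of the 14 libraries (columns), on a colour scale of log2(n + 1), with a red dot where a peak lies within 1 kb of an annotated gene end. Nrxn3 has the highest count, with 71 peaks in ISL1_26 replicate 1, and H3K27ac replicate 1 has at most 4 peaks at any of the genes.

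The 37 genes fell into 4 states by the marks at their ends. H3K27ac without H3K27me3 was found at 15 of them (40.5%, all genes 39.5%), H3K27me3 without H3K27ac at 7 (18.9%, all genes 12.5%), both marks at 10 (27%, all genes 8.04%) and neither at 5 (13.5%, all genes 40%). Weighted to gene length, the shares of all genes were 40.9%, 17.7%, 12.5% and 28.9%. The state with both marks held the greatest excess over the weighted share. In all 10 of its genes the 2 marks lay at the same end, as they did in 1406 of the 1760 genes of the genome with both marks (79.9%). Genes with both marks at the same end were thus 27% of the 37 and 6.42% of all genes (weighted 10.6%). Wherever the strand was listed that end was the first one. H3K4me3 replicate 2 and H3K27me3 shared an end at 11 genes (29.7%, all genes 6.32%, weighted 10.6%), namely Bsn, Cplx1, Nlgn1, Nrxn2, Rims2, Slc17a6, Sv2c, Syn1, Syn2, Syt2 and Unc13a. In tissue of mixed cells, marks on the same chromatin and marks in different cells cannot be told apart. Without H3K27me3 replicate 2 the genes with both marks numbered 6 (16.2%, weighted 6.71%) and those with H3K27me3 alone 4 (10.8%, weighted 9.01%), and without H3K27me3 replicate 3 the latter numbered 3 (8.11%, weighted 8.75%). Without H3K27ac replicate 2 or 3 the genes with H3K27ac alone numbered 7 or 6 (weighted 19.4% and 20.2%) and those with neither mark 13 or 14 (weighted 50.4% and 49.6%). Genes with neither mark numbered 8 or 9 without H3K27me3 replicate 2 or 3 (weighted 37.6% and 37.8%).

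H3K4me3 and ISL1 were spread unevenly over the 4 states, among the synaptic genes as among all genes. H3K4me3 replicate 2 lay at an end of 11 of the 15 genes with H3K27ac alone, of 9 of the 10 with both marks, of 2 of the 7 with H3K27me3 alone and of 0 of the 5 with neither. A replicated ISL1 region lay in the window of 12, 7, 3 and 1 of them. In all genes of the same states, H3K4me3 ends made up 71.7%, 59.3%, 18.6% and 10.4%, and ISL1 windows 49.4%, 63.9%, 44.6% and 19.5%. These shares were not weighted to gene length. In the same order, median lengths were 82, 101, 194 and 47.2 kb for the synaptic genes. For all genes of the states they were 22.3, 26.1, 21.8 and 10.2 kb, so the ISL1 windows are not like measures.

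**Figure D3:**
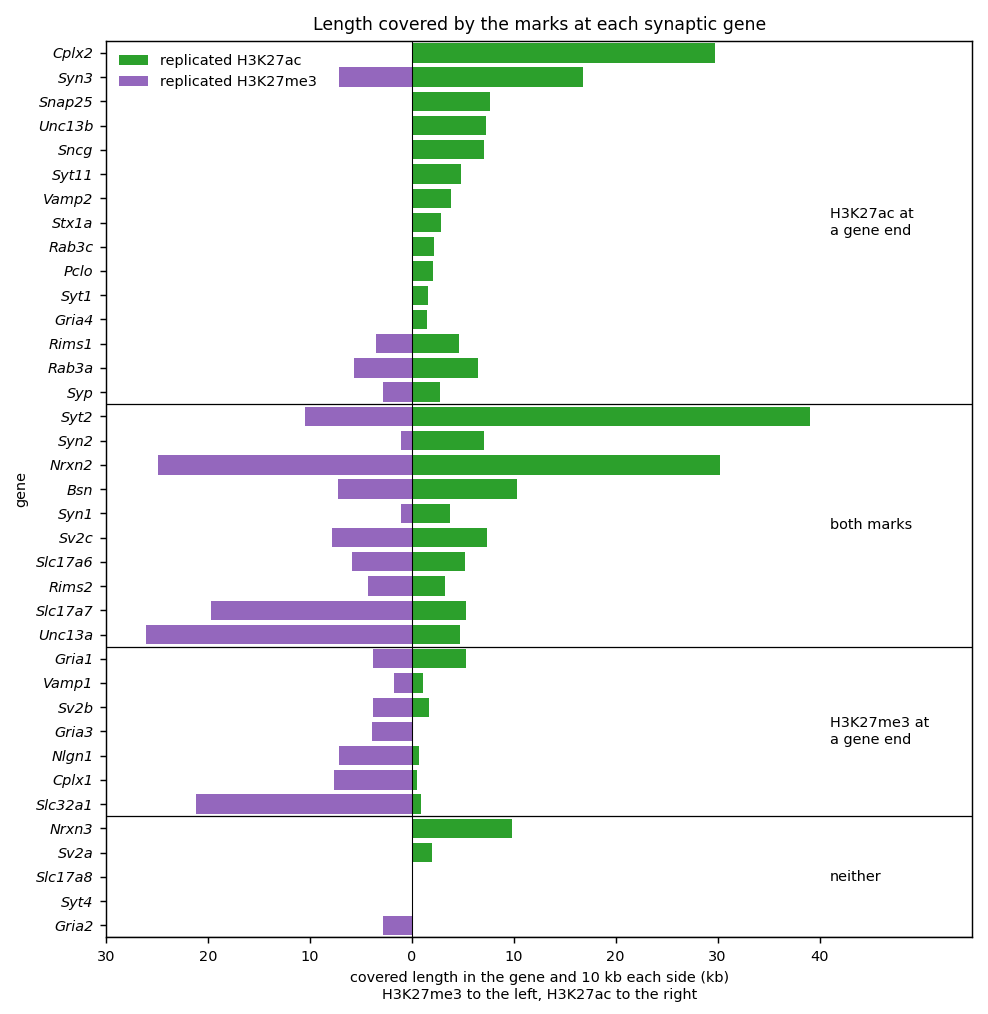
Length (kb) of the window of each gene that lies in replicated H3K27ac regions (to the right) and replicated H3K27me3 regions (to the left), with the genes grouped by the marks at their ends. Syt2 has the longest H3K27ac cover at 39.1 kb, Unc13a the longest H3K27me3 cover at 26.1 kb, and Nrxn2 has 30.2 and 24.9 kb of the marks.

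Among the synaptotagmins, H3K27ac lay at an end of 3 of 4 (Syt1, Syt2 and Syt11) and H3K27me3 at an end of 1 (Syt2). Syt2, a fast calcium sensor of vesicle fusion (chromosome 1, 134646534 to 134753149), had 13, 12, 6 and 9 peaks in the 4 ISL1 libraries, 5 and 0 in the POU4F1 libraries, 0, 39 and 33 in H3K27ac replicates 1 to 3, and 3, 3 and 3 in H3K27me3 replicates 1 to 3. Every ISL1 library and every H3K27me3 library had peaks there, whereas H3K27ac replicate 1 had none. Its H3K27ac peaks covered 0, 29.5 and 36.4 kb of the window and its H3K27me3 peaks 1.4, 10 and 8.76 kb. The H3K27me3 lay around both listed start sites, and the H3K27ac along much of the gene. Syt2 had 5 replicated ISL1 regions, 4 of them present in all 4 ISL1 libraries. The strongest spans 134665635 to 134669044, 19 kb inside the gene from the first start, with peaks in the top 1.26% of their lists on average, H3K27ac in 2 libraries and a peak of POU4F1 replicate 1. The POU4F1 replicate 2 list has no peak in the window.

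The other synaptotagmins carried less. Syt1, the main calcium sensor of fast release in the forebrain, had 24, 10, 3 and 6 ISL1 peaks, 7 and 5 POU4F1 peaks, 1, 5 and 20 H3K27ac peaks and 0, 0 and 1 H3K27me3 peaks. Peaks of every ISL1 and POU4F1 library were spread over its 513 kb, and only 1 ISL1 and 1 POU4F1 region were replicated; H3K27ac at its first end was found in 3 libraries. Syt11, a synaptotagmin that does not bind calcium, had 2, 1, 0 and 2 ISL1 peaks and 1, 5 and 7 H3K27ac peaks, with 2, 0 and 0 of H3K27me3 and 1 and 0 of POU4F1. Its single ISL1 region, called in 3 libraries at 4.66% of the lists on average, has H3K27ac in all 3 libraries. The region overlaps the promoter window, where 2 ISL1 libraries had a peak. Syt4, another synaptotagmin of vesicles, had no replicated region of any target: ISL1 peaks numbered 1, 0, 0 and 0, POU4F1 peaks 1 and 1, H3K27ac peaks 0, 2 and 1, H3K27me3 peaks 1, 0 and 1 and H3K4me3 replicate 2 peaks 0. Its library peaks did not coincide in position within a target.

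**Figure D4:**
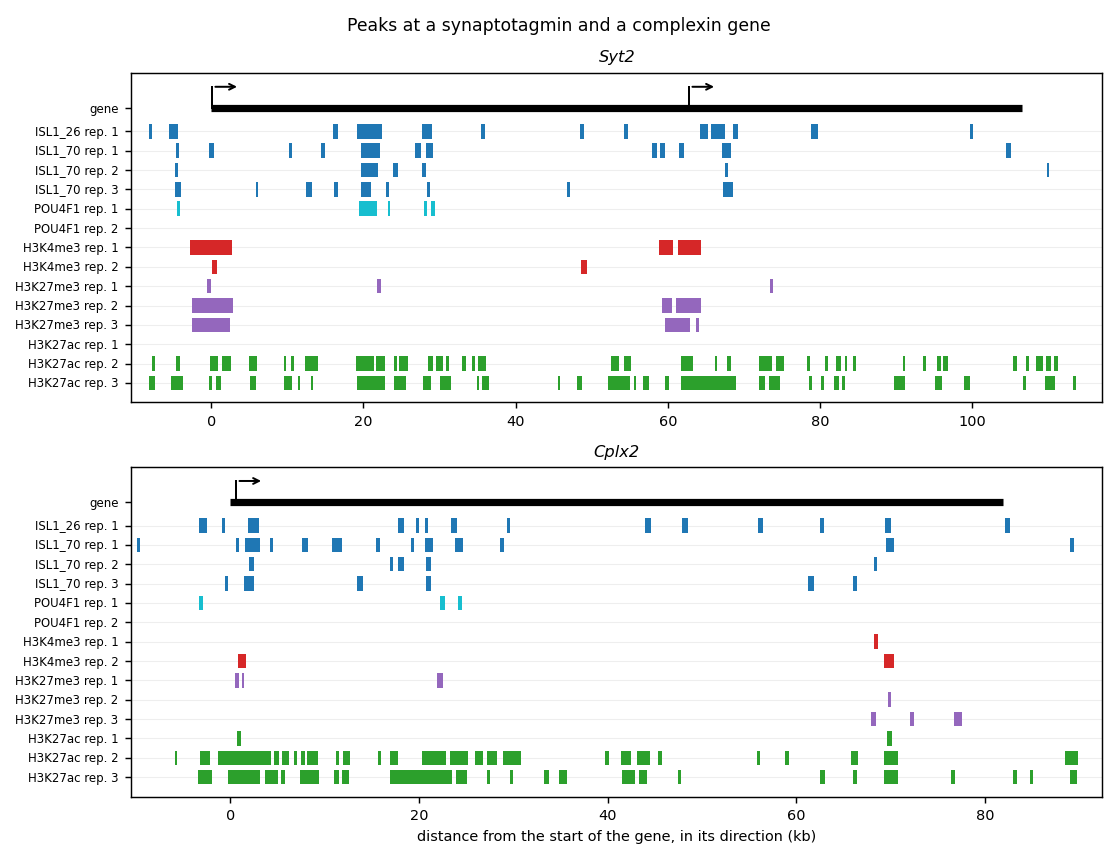
Peaks of the 14 libraries (rows) along Syt2 and Cplx2, by distance in kb from the start of the gene in its direction; the black bar is the gene and arrows are listed start sites. Blocks of H3K27ac replicates 2 and 3 run along both genes, ISL1 peaks of all 4 libraries line up at 4 places of Syt2, and H3K27me3 lies at both starts of Syt2.

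All 6 SNARE and complexin genes carried replicated H3K27ac in the window (all genes 65%), that of Vamp1 within 1 kb of an end of another gene. It lay at an end of 4 (all genes 47.5%): Snap25, Stx1a and Vamp2, which encode the proteins of the core fusion complex, and Cplx2. Cplx2, a complexin that clamps and promotes fusion (chromosome 13, 54301964 to 54383923), had 14, 13, 5 and 6 ISL1 peaks, 3 and 0 POU4F1 peaks, 2, 26 and 23 H3K27ac peaks and 3, 1 and 3 H3K27me3 peaks. H3K27ac replicated cover was 29.7 kb and replicated H3K27me3 was 0 kb. Of its 6 ISL1 regions, 2 were in all 4 libraries, at 54303374 to 54305148 and 54322564 to 54323437, each with H3K27ac in 2 libraries. A POU4F1 replicate 1 peak lay in another region, at 54325409 to 54326585. Cplx1, the other complexin, was unlike it in its end marks, with H3K27me3 and H3K4me3 replicate 2 but no replicated H3K27ac there. It had 3, 2, 0 and 0 ISL1 peaks, 2 and 1 POU4F1 peaks, 0, 1 and 3 H3K27ac peaks and 1, 4 and 10 H3K27me3 peaks.

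Vamp1, a vesicle SNARE of fast spinal and brainstem synapses, also carried H3K27me3 at an end without H3K27ac. It had 3, 1, 1 and 1 ISL1 peaks, 1 and 0 POU4F1 peaks, 0, 2 and 3 H3K27ac peaks and 1, 1 and 2 H3K27me3 peaks. The H3K27me3 at Vamp1 covered 1.74 kb in all and, at its start, rested on H3K27me3 replicates 1 and 3. Vamp2, its forebrain counterpart, had H3K27ac at an end in all 3 libraries and 1, 2 and 2 such peaks in all. Snap25, the SNARE of the plasma membrane, had 2, 9 and 11 H3K27ac peaks, 3 replicated ISL1 regions and no replicated H3K27me3. Stx1a had 0, 8 and 6 H3K27ac peaks and no replicated ISL1 region.

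All 10 other vesicle protein genes had replicated H3K27ac in the window (all genes 65%), that of Sv2a within 1 kb of an end of another gene. H3K27ac lay at an end of 8 (all genes 47.5%). H3K27me3 lay at an end of 4, Syn1, Syn2, Sv2b and Sv2c (all genes 20.5%). The synapsins tether vesicles in the reserve pool. Syn1 had 1, 6, 1 and 1 ISL1 peaks, 1 and 0 POU4F1 peaks, 1, 2 and 6 H3K27ac peaks and 2, 1 and 0 H3K27me3 peaks. Its H3K27me3 was a single region of 1.02 kb at the first end, called in replicates 1 and 2, and none of its ISL1 peaks was replicated. Syn2 had 9, 5, 2 and 6 ISL1 peaks, 2 and 0 POU4F1 peaks, 0, 11 and 23 H3K27ac peaks and 1, 2 and 2 H3K27me3 peaks, with 1 ISL1 region, at 115169886 to 115171000 on chromosome 6, in all 4 libraries. Syn3 had 15, 20, 5 and 5 ISL1 peaks, 4 and 5 POU4F1 peaks, 2, 29 and 60 H3K27ac peaks and 3, 3 and 4 H3K27me3 peaks. It carried H3K27ac, ISL1, H3K4me3 replicate 2 and POU4F1 replicate 1 together at one end, and its 7.2 kb of H3K27me3 lay elsewhere in the window, which also holds Fbxo7 and Timp3.

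The SV2 glycoproteins, transporter-like proteins of the vesicle membrane, fell into 3 different states. Sv2c, which carried both marks at its first end, had 11, 9, 3 and 5 ISL1 peaks, 5 and 3 POU4F1 peaks, 1, 14 and 23 H3K27ac peaks and 4, 4 and 4 H3K27me3 peaks. It was called by every library of every target, as were other genes such as Rims1, Rims2 and Nrxn2. Sv2c had a replicated POU4F1 region at 96028669 to 96029435 on chromosome 13, without ISL1 or H3K27ac, beside 3 ISL1 regions elsewhere. Sv2b had H3K27me3 alone at its first end: 9, 8, 3 and 4 ISL1 peaks, 2 and 4 POU4F1 peaks, 0, 11 and 17 H3K27ac peaks and 0, 1 and 2 H3K27me3 peaks were counted. Sv2a had neither mark replicated at an end, and its window holds 3 other genes. Of the rest, Syp (a membrane protein of all synaptic vesicles), Rab3a and Rab3c (small GTPases of vesicle docking) and Sncg (a synuclein) had H3K27ac alone at an end. Sncg had 2, 2, 1 and 0 ISL1 peaks, 3 and 0 POU4F1 peaks, 1, 5 and 5 H3K27ac peaks and 2, 0 and 1 H3K27me3 peaks. Its ISL1 region, 3.75 kb upstream of the start, also held a POU4F1 replicate 1 peak. Syp carried ISL1 at its first end in 3 libraries.

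All 6 active zone genes carried H3K27ac at an end (all genes 47.5%). Of these, 3 (Bsn, Rims2 and Unc13a) also carried H3K27me3 (both marks in 8.04% of all genes). Unc13a, which encodes the main vesicle priming factor, had 5, 6, 1 and 0 ISL1 peaks, 0 and 1 POU4F1 peaks, 1, 3 and 11 H3K27ac peaks and 7, 9 and 13 H3K27me3 peaks. Its H3K27me3 covered 3.19, 20.4 and 34.2 kb of the window by library, against 0.365, 4.36 and 7.26 kb of H3K27ac, and it had no replicated ISL1 region. All 3 libraries of each of these marks had a peak at its first end. The related Unc13b had H3K27ac alone at an end, with 2, 6 and 17 peaks, and 2 ISL1 regions.

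Bsn and Pclo encode the giant scaffolds bassoon and piccolo. Bsn had 5, 6, 2 and 2 ISL1 peaks, 2 and 2 POU4F1 peaks, 2, 21 and 24 H3K27ac peaks and 3, 4 and 6 H3K27me3 peaks, and although every ISL1 library had peaks there none coincided. Pclo had 10, 4, 1 and 3 ISL1 peaks, 4 and 6 POU4F1 peaks, 0, 2 and 8 H3K27ac peaks and 0, 0 and 1 H3K27me3 peaks. H3K27me3 at the first end was called in 3 libraries at Bsn and in 1 at Pclo. Rims1 and Rims2 encode scaffolds that bind RAB3 and calcium channels. Rims1 had 15, 14, 6 and 5 ISL1 peaks, 6 and 8 POU4F1 peaks, 1, 6 and 18 H3K27ac peaks and 1, 2 and 2 H3K27me3 peaks, with ISL1 in 2 libraries and H3K27ac in 3 at its first end. Its replicated POU4F1 region at 22707999 to 22709819 on chromosome 1, 96.3 kb from the start, lay in H3K27ac of 2 libraries and had no ISL1 peak. Rims2 had 10, 13, 2 and 5 ISL1 peaks, 8 and 1 POU4F1 peaks, 3, 10 and 12 H3K27ac peaks and 3, 2 and 2 H3K27me3 peaks, and both marks were called at one end by all 3 of their libraries.

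The vesicular transporters decide which transmitter a neuron releases, and the 4 genes differed in their marks. Slc17a6 encodes the glutamate transporter VGLUT2 (chromosome 7, 51621830 to 51671126). It had 8, 5, 2 and 3 ISL1 peaks, 3 and 0 POU4F1 peaks, 1, 3 and 2 H3K27ac peaks, 1, 2 and 3 H3K27me3 peaks and 1 H3K4me3 replicate 2 peak. Both H3K27ac and H3K27me3 lay at the upstream start, with H3K4me3 replicate 2. At the internal start, whose sequence above holds overlapping ATTAAT and TAATTA matches and a CATATG, there was an ISL1 region in 2 libraries (51624077 to 51625555) with a POU4F1 replicate 1 peak, H3K27ac in 2 libraries and H3K27me3 in 2. A second ISL1 region, 51628592 to 51630401, was called in 3 libraries and also held a POU4F1 replicate 1 peak, without H3K27ac. POU4F1 replicate 2 had no peak at the gene.

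Slc17a7, which encodes VGLUT1, carried broad H3K27me3 beside H3K27ac. It had 2, 3, 0 and 1 ISL1 peaks, 1 and 0 POU4F1 peaks, 1, 7 and 5 H3K27ac peaks and 8, 4 and 4 H3K27me3 peaks. The H3K27me3 covered 4.21, 16.5 and 20.8 kb of the window, and the H3K27ac 0.574, 6.1 and 4.99 kb. H3K27ac at its start was called by replicates 1 and 2 and not by replicate 3. The window holds 5 other genes, and 1 of its 2 ISL1 regions lies within 1 kb of an end of Aldh16a1. The other, 1.14 kb upstream of the start, held a POU4F1 replicate 1 peak.

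Slc32a1 encodes the vesicular transporter of the inhibitory transmitters GABA and glycine. It had 2, 2, 2 and 1 ISL1 peaks, 1 and 1 POU4F1 peaks, 0, 1 and 3 H3K27ac peaks and 4, 6 and 4 H3K27me3 peaks. H3K27me3 covered 1.61, 18.9 and 21.5 kb, across the whole gene in replicates 2 and 3, and none of the ISL1 peaks coincided. The 1 replicated H3K27ac region in its window lies within 1 kb of an end of the neighbour Actr5. Slc17a8 encodes VGLUT3, the transporter of inner hair cells. It had 1, 4, 0 and 0 ISL1 peaks, 0 and 0 POU4F1 peaks, 0, 0 and 2 H3K27ac peaks, 0, 1 and 0 H3K27me3 peaks and 0 H3K4me3 replicate 2 peaks, and none was replicated.

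**Figure D5:**
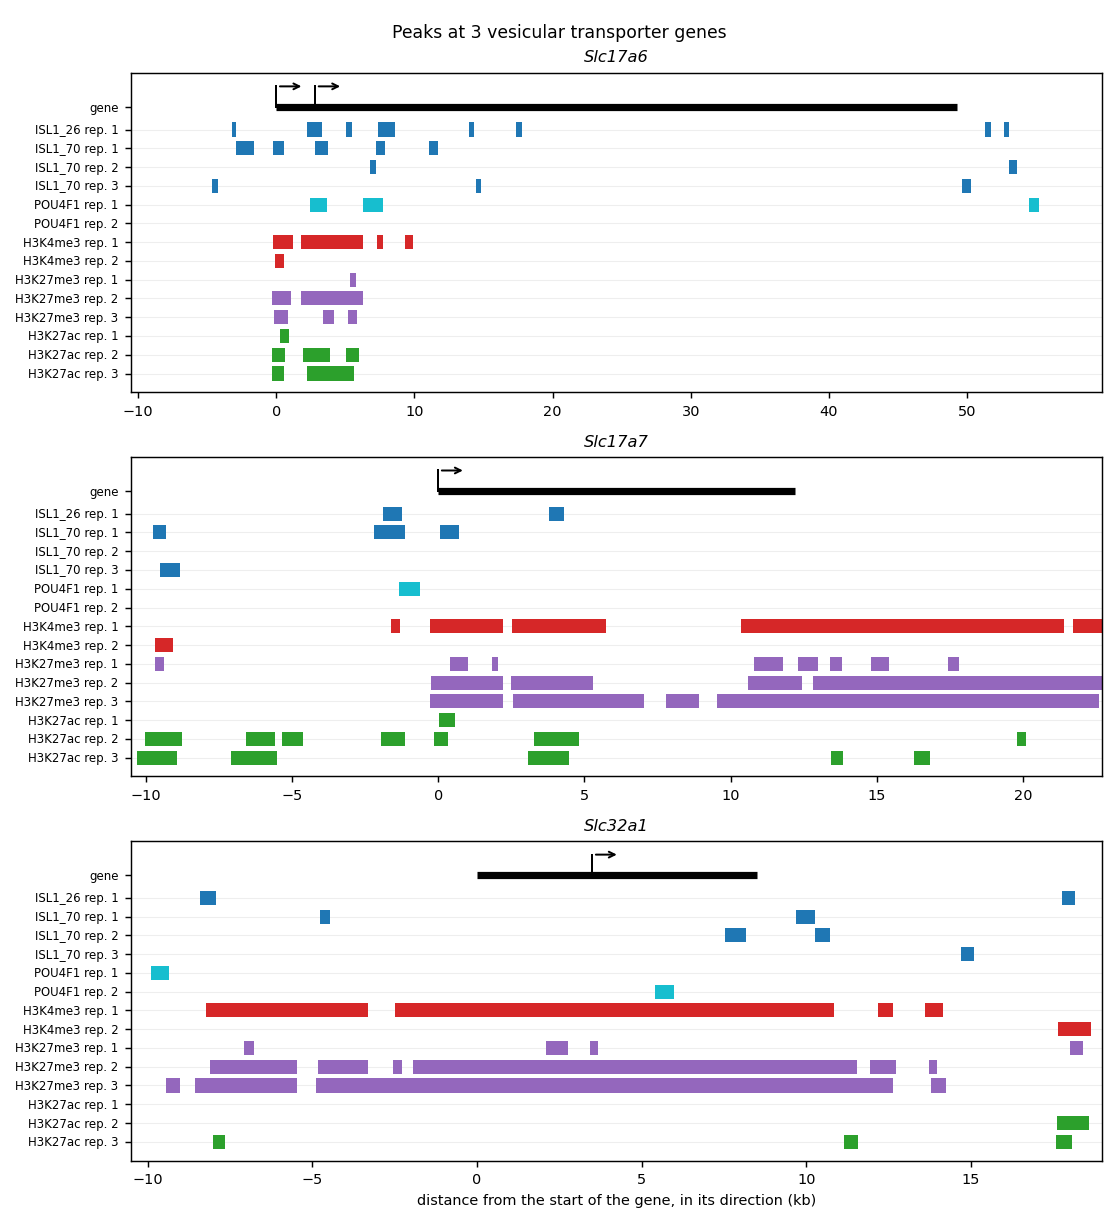
Peaks of the 14 libraries (rows) along Slc17a6, Slc17a7 and Slc32a1, by distance in kb from the start of the gene in its direction; the black bar is the gene and arrows are listed start sites. H3K27ac and H3K27me3 lie together over both starts of Slc17a6, H3K27me3 covers most of Slc17a7 and Slc32a1, and H3K27ac is absent from the body of Slc32a1.

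Among the adhesion genes, Nrxn2 had long cover of both marks, Nrxn3 the most ISL1 regions of the 37 genes, and Nlgn1 H3K27me3 without H3K27ac at its end. Nrxn2, a neurexin, had 14, 14, 2 and 6 ISL1 peaks, 6 and 2 POU4F1 peaks, 4, 29 and 31 H3K27ac peaks and 11, 8 and 17 H3K27me3 peaks. H3K27ac covered 3.17, 28.6 and 31.1 kb and H3K27me3 covered 4.91, 19.5 and 33.2 kb, so the Nrxn2 window ranked among the longest for each mark. That window also holds Rasgrp2 and Slc22a12. Of its 18 replicated H3K27ac regions 14 lay more than 1 kb from an end of another gene, as did its 5 H3K27me3 regions. Nrxn3, at 1612 kb the longest of the genes, had 71, 61, 18 and 31 ISL1 peaks, 33 and 15 POU4F1 peaks, 0, 26 and 70 H3K27ac peaks and 4, 0 and 4 H3K27me3 peaks. It held 19 of the 73 ISL1 regions found at the synaptic genes and no replicated POU4F1 region or H3K27me3 region. ISL1 and H3K27ac lay at an internal start that the annotation lists for Nrxn3 and not at its outer ends. Nlgn1, a neuroligin of glutamate synapses, had 21, 26, 6 and 9 ISL1 peaks, 12 and 6 POU4F1 peaks, 0, 7 and 26 H3K27ac peaks and 3, 5 and 4 H3K27me3 peaks. At its first end ISL1, H3K4me3 replicate 2 and H3K27me3 were present and H3K27ac had no peak in any library.

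Of the 4 AMPA receptor subunits, H3K27ac lay at an end of 1 (Gria4), H3K27me3 without H3K27ac at an end of 2 (Gria1 and Gria3) and neither mark at an end of 1 (Gria2). Gria4 (chromosome 9, 4417893 to 4796234) had 4, 10, 1 and 5 ISL1 peaks, 5 and 4 POU4F1 peaks, 1, 1 and 5 H3K27ac peaks, 1, 0 and 2 H3K27me3 peaks and 1 H3K4me3 replicate 2 peak. Its POU4F1 region at 4795696 to 4796177 lies 0.057 kb inside the start site shown above, with H3K27ac in 2 libraries, H3K4me3 replicate 2, an H3K27me3 replicate 3 peak and no ISL1 peak. The region does not reach into the printed promoter, which holds no capitals. Gria1 had 21, 11, 5 and 11 ISL1 peaks, 7 and 7 POU4F1 peaks, 0, 9 and 30 H3K27ac peaks and 1, 1 and 9 H3K27me3 peaks. One of its 4 ISL1 regions, 57069765 to 57070978 on chromosome 11, was in all 4 libraries at 1.71% of the lists on average, and a POU4F1 region at 57298370 to 57299106 had no ISL1 peak.

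Gria2, whose subunit sets the calcium permeability of the receptor, had 4, 1, 1 and 0 ISL1 peaks, 3 and 0 POU4F1 peaks, 0, 1 and 7 H3K27ac peaks and 0, 1 and 1 H3K27me3 peaks. Its H3K27me3, 2.79 kb in replicates 2 and 3, overlapped the listed promoter, which lies inside the annotated gene and more than 1 kb from its end. Gria3 had 7, 6, 1 and 4 ISL1 peaks, 0 and 2 POU4F1 peaks, 0, 1 and 8 H3K27ac peaks and 2, 4 and 4 H3K27me3 peaks. All 3 H3K27me3 libraries called its end, and it had no replicated region of ISL1, POU4F1 or H3K27ac.

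The 23 synaptic genes with ISL1 held 73 distinct replicated ISL1 regions. Of these, 58 (79.5%) lay inside the gene, 8 (11%) in the flanks and 7 (9.59%) at a gene end, while the windows of the 37 genes consist to 90.4% of gene interior, to 7.86% of flank and to 1.75% of gene ends. A region was placed at an end if any of its bases came within 1 kb, so region and base shares are not like measures. The places of all ISL1 regions are not given here. Replicated H3K27ac overlapped 38 of them (52.1%), against 47.5% of all 20413 replicated ISL1 regions, and replicated H3K27me3 overlapped 4 (5.48%, all regions 6.94%). A POU4F1 replicate 1 peak lay in 18 (24.7%, all regions 14.4%) and a POU4F1 replicate 2 peak in 1 (1.37%, all regions 3.48%). Regions called in all 4 ISL1 libraries numbered 10 (13.7%, all regions 7.58%), at Syt2, Gria1, Nlgn1, Nrxn3, Cplx2 and Syn2. The regions of a gene share its chromatin and the same libraries, and 19 of the 73 come from Nrxn3.

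Replicated POU4F1 regions were found at Gria4, Syt1, Sv2c, Rims1 and Gria1, and none of the 5 regions overlapped a replicated ISL1 region. The share of all replicated POU4F1 regions with such an overlap is not given here, so this describes the 5 regions only. The POU4F1 region of Syt1, 108831711 to 108832429 on chromosome 10, had a peak of 1 ISL1 library. The 2 POU4F1 lists agreed little, so each of these counts depends on both. Replicate 1 alone had peaks at 31 of the genes (83.8%, weighted 71.6%) and replicate 2 alone at 21 (56.8%, weighted 67.1%). Over the 37 genes, log gene length and log number of regions had a Spearman correlation of 0.53 for ISL1, 0.43 for POU4F1, 0.23 for H3K27ac, 0.24 for H3K4me3 and 0.02 for H3K27me3 (Pearson 0.54, 0.38, 0.27, 0.22 and 0.02). These genes share the libraries, and the correlations are a description only.

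The promoter sequences were richer in CpG than those of all genes. Of the 37 genes, 29 had a promoter in the table, 41 promoters in all, with a median GC content of 59.7% and 14 CpG dinucleotides in 300 bases, against 52.7% and 7 in all 32851 promoters. GGGCGG, a box bound by SP and KLF factors, was in 22 of the 41 (53.7%, all promoters 35.7%). The RE1 part TTCAGCACC was in 3 (7.32%, all promoters 0.371%), at Syn1, Unc13a and an internal start of Nlgn1 that had no replicated region. At Unc13a the other part, GGACAGC, lay beside it on the minus strand of the printed sequence, the matches beginning 8 and 23 bases after the start. GGACAGC was in 2 of the 41 (4.88%, all promoters 6.56%). Of the remaining motifs, searched on both strands, ATTAAT was in 1 promoter (2.44%, all 4.75%), TAATTA in 2 (4.88%, all 5.29%) and CATATG in 2 (4.88%, all 3.91%), and a single promoter, the internal start of Slc17a6, held all 3.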

How the data were processed

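CUT&Tag was measured in 20 libraries, grouped by their titles, and the 14 deposited peak lists, 1 per library, were used; the 6 IgG libraries were not analysed here. MACS2 with a control made the peak calls, per the file headers (the peak names). FastQC, Bowtie2, SEACR and the build mm10 are named by the submitters' processing notes, with versions and roles not given in the sources used here. For each peak the authors deposited a fold enrichment over background, which is a ratio, and 2 scores, −log10 p-value and −log10 q-value. Every list starts at a −log10 q of 1. They served only for ranks and thresholds inside one list, where the percentile is the rank by q score and a lower percentile is a stronger peak. A deeper library gives more peaks, and depth is unknown.

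Overlapping peaks of a target (at least 1 bp) were merged, and regions with peaks in at least 2 libraries were called replicated. For H3K4me3 the peaks of replicate 2 were used alone. Gene positions came from a RefSeq table of GRCm38.p6, without strand; strand and start sites came from the RefSeq promoter table, which lists 29 of the 37 genes. Shares of all 21887 genes were weighted to the lengths of the synaptic genes over 20 bins of gene length. No test was made, so no p-value of this work is given, and no result of these counts carries an SD, since presence in a list is not a level. The members and lists were chosen with earlier results of these data known. Values by library are printed, by rule, for genes with H3K27me3 at an end, for the 8 genes whose ISL1 region was called in the most libraries, for genes with a POU4F1 region or a POU4F1 replicate 1 peak in an ISL1 region, for the transporters and AMPA receptor subunits, for genes with no replicated region and for the 2 genes with the widest H3K27ac. Alternatives covered the peak threshold, the number of libraries, the overlap, the windows, list length and each library left out. The counting was tested on simulated lists. The result of 1 marker list is not reported here. Python 3.11.15, NumPy 2.4.6, pandas 2.3.3, SciPy 1.17.1 and matplotlib 3.10.9 were used.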

Additional observations from a re-analysis of the deposited data

Results flagged for a closer look

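The 4 ISL1 libraries were compared for a library far from the others, by Dixon's criterion, on the number of peaks in the window of each of the 37 genes and on the 2 totals of genes with a peak in the window and at an end. Of these 39 groups of values, 4 stood out (10.3%). The criterion's rate of about 1 in 20 holds for continuous values and not for tied counts, so the 10.3% was not compared with it. At Syn1 the ISL1_70 replicate 1 library had 6 peaks and the other libraries 1 each. At Vamp1 the ISL1_26 replicate 1 library had 3 peaks and the others 1 each. At Syt4 the ISL1_26 replicate 1 library had 1 peak and the others 0. At Slc32a1 the ISL1_70 replicate 3 library had 1 peak and the others 2 each. These are small whole numbers with ties, in which a difference of 1 peak is enough to stand out.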

How the results depend on the processing

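No paired analysis was possible because these results come from no test. Of 157 alternative values of the counts, 102 stayed within 1.5 times the reported count and 55 did not. Leaving out 1 library at a time, the genes with H3K27ac in the window ranged from 16 to 33 and at an end from 14 to 23, and those with H3K27me3 from 14 to 21 and from 10 to 15. Genes with ISL1 ranged from 16 to 22 in the window and from 3 to 5 at an end. For POU4F1 the ranges were 21 to 31 and 3 to 9 (then a single list). For H3K4me3 the counts without replicate 1 were the reported 30 and 22. The 27 and 19 found without H3K4me3 replicate 2 come from replicate 1 alone, the list set aside above. They therefore do not show how steady the H3K4me3 counts are. Genes with H3K27ac alone at an end ranged from 6 to 19, with H3K27me3 alone from 3 to 10, with both marks from 6 to 9 and with neither from 6 to 14. The low H3K27ac values come without H3K27ac replicate 2 or 3, whose absence leaves the short list of replicate 1. Shares in brackets are those of the 37 genes against the length-weighted share of all genes. ISL1 was in the window of 18 genes without ISL1_26 replicate 1 (48.6% against 37.6%). Without ISL1_70 replicate 1, 2 or 3 it was in 16, 21 or 22 (43.2% against 40%, 56.8% against 54.5%, 59.5% against 51.8%). At ends, in the same order, the shares were 8.11% against 7.74%, 13.5% against 8.26%, 13.5% against 15.8% and 8.11% against 15.3%. The ISL1 window share was thus above the weighted share each time, and the end share above or below it by library left out. With a peak in any 1 library, ISL1 was counted at 37 genes (100% against 97.8%) and 32 ends (86.5% against 64.4%), POU4F1 at 33 (89.2% against 83.8%) and 11 (29.7% against 23%), and H3K27me3 at 37 (100% against 82.4%) and 28 (75.7% against 54.2%). H3K27ac alone was then at 8 (21.6% against 31%), both marks at 23 (62.2% against 43.5%) and neither at 1 (2.7% against 14.8%). With a peak in every library, ISL1 was counted at 6 genes (16.2% against 10.9%) and 0 ends (0% against 1.04%), H3K27ac at 15 (40.5% against 33.2%) and 13 (35.1% against 23.7%), and H3K27me3 at 13 (35.1% against 22.8%) and 9 (24.3% against 15.5%). H3K27ac alone was then at 9 (24.3% against 21.4%), both marks at 4 (10.8% against 2.32%) and neither at 19 (51.4% against 63.1%). With both libraries labelled H3K4me3 required, H3K4me3 was at 13 genes (35.1% against 18.4%) and 10 ends (27% against 12.7%). Among the 10000 best peaks of each library, ISL1 was at 10 genes (27% against 24.7%) and 0 ends (0% against 3.73%), POU4F1 at 0 and 0 (weighted 0.56% and 0.0469%), and H3K27ac at 14 (37.8% against 39.5%) and 9 (24.3% against 24.9%), so the excess of H3K27ac was not seen there. H3K27ac alone was then at 6 (16.2% against 22.3%), both marks at 3 (8.11% against 2.65%) and neither at 19 (51.4% against 52.8%). With an overlap of at least 50% of the shorter peak, POU4F1 was at 3 genes (8.11% against 2.91%). An alternative chosen after seeing the data left out regions within 1 kb of an end of another gene. It gave 23 genes for ISL1 (62.2% against 54.6%), 5 for POU4F1 (13.5% against 4.08%) and 30 for H3K27ac (81.1% against 72.2%). For H3K27me3 it gave 21 (56.8% against 38.6%) and for H3K4me3 25 (67.6% against 69.2%), the latter below the weighted share.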

Other observations

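A further 60 synaptic genes outside the 37 were counted in the same way. Replicated H3K27ac lay at an end of 39 (65%, length-weighted share of all genes 54.5%), H3K27me3 at an end of 30 (50%, weighted 26%), both marks at 16 (26.7%, weighted 10.7%) and neither at 7 (11.7%, weighted 30.2%). ISL1 was in the window of 39 (65%, weighted 52.6%) and POU4F1 in the window of 2 (3.33%, weighted 3.24%). The leading ISL1 regions at gene ends were those of Syt13, a synaptotagmin, in 4 libraries at 0.875% of the lists on average, and then, each in 3 libraries, of Nlgn2, a neuroligin of inhibitory synapses (19.5%), Grin2d, an NMDA receptor subunit (27.7%), and Syt9 (29.9%). By number of libraries and then covered length, H3K27me3 at an end led at Grin1, the obligate NMDA receptor subunit (31.7 kb), Grin2d (20.4 kb), Gad1, which makes GABA (15.2 kb), and the synuclein gene Sncb (14 kb).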
